A study of Rattus norvegicus with 6 samples.

Results

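A set of 30 genes that mark microglia and macrophages was followed through cultures of rat primary astrocytes, as a measure of what the cultures hold besides astrocytes. All 30 were chosen by symbol from general knowledge of these cells, with earlier results of these data known. Each was found among the 22608 gene symbols of the deposited table. Poly(A) RNA was sequenced from 3 libraries of BHB-treated and 3 libraries of control primary astrocytes from rat brain. BHB (β-hydroxybutyrate) is the main ketone body of blood in fasting, and the headers of the deposited table give its dose as 2 mM. The rat strain, the age of the animals, any microglia removal step and the length of treatment are not stated in the sources used here. Nothing in the labels ties the libraries to separate cultures or animals, and the p-values therefore reflect the spread among these libraries alone, which may be technical.

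Microglia are the resident macrophages of the brain. They arise from myeloid precursors outside the nervous system, depend on the receptor CSF1R for survival, and are commonly carried along when astrocytes are grown from neonatal brain. Their identity rests on the transcription factors PU.1 (gene Spi1) and IRF8, and their surface carries receptors for fractalkine, nucleotides, lipids and antibodies. Many of these receptors signal through the small adaptors TYROBP (DAP12) and the FcRγ chain (Fcer1g), whose cytoplasmic tyrosine motifs recruit the kinase SYK.

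Values are FPKM, fragments divided by transcript length and by library size. FPKM can be compared between genes, but the depth of each library is unknown. The 6 libraries had 12288 to 12312 genes at 1 FPKM or more, and their FPKM summed to 361730 to 367448 with BHB and 354565 to 365566 in controls. The labelled cell type matched its markers: 13 astrocyte genes summed to 5610 to 5646 FPKM with BHB and 5190 to 5486 FPKM in controls, although the connexin gene Gjb6 stayed at or under 0.163 FPKM in each library. The 6 markers of endothelial cells summed to at most 1.20 FPKM with BHB and 1.42 FPKM in controls, whereas fibroblast and mural cell genes, led by Tagln and Acta2, summed to 4623 to 5004 FPKM with BHB and 4468 to 4843 FPKM in controls. The fibroblast genes Dcn and Lum of the same list were at most 0.189 FPKM with BHB and 0.234 FPKM in controls. The 6 neuron genes, led by Stmn2, summed to 83.7 to 85.3 FPKM with BHB and 83.7 to 87.2 FPKM in controls. The 9 oligodendrocyte genes, led by Olig1, summed to 44.5 to 49.3 FPKM with BHB and 45.9 to 49.3 FPKM in controls. Rbfox3 and Sox10 of these lists, named after their values were seen, averaged 0.454 and 0.271 FPKM with BHB and 0.392 and 0.260 FPKM in controls.

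None of the 30 microglia and macrophage genes was at 0 in any library. Over the 6 libraries 4 members averaged at least 10 FPKM, 9 stood between 5 and 10 FPKM, 14 between 1 and 5 FPKM, and 3 under 1 FPKM. The median of the member means was 4.11 FPKM, against 10.6 FPKM over the 12373 genes that reached 1 FPKM in at least 3 libraries. The summed level of the 30 genes was 154.9, 155.3 and 164.8 FPKM in BHB libraries 1 to 3, against 171.6, 171.2 and 155.6 FPKM in control libraries 1 to 3. That is 0.0423% to 0.0456% of all summed FPKM with BHB and 0.0439% to 0.0478% in controls, and the groups overlapped because control 3 lay among the BHB libraries. The means were 158.3 ± 5.60 FPKM with BHB and 166.1 ± 9.15 FPKM in controls (SD, n = 3 each), a ratio of 0.953. In bulk RNA, fewer cells of a type and less RNA per cell cannot be told apart.

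**Figure D1:**
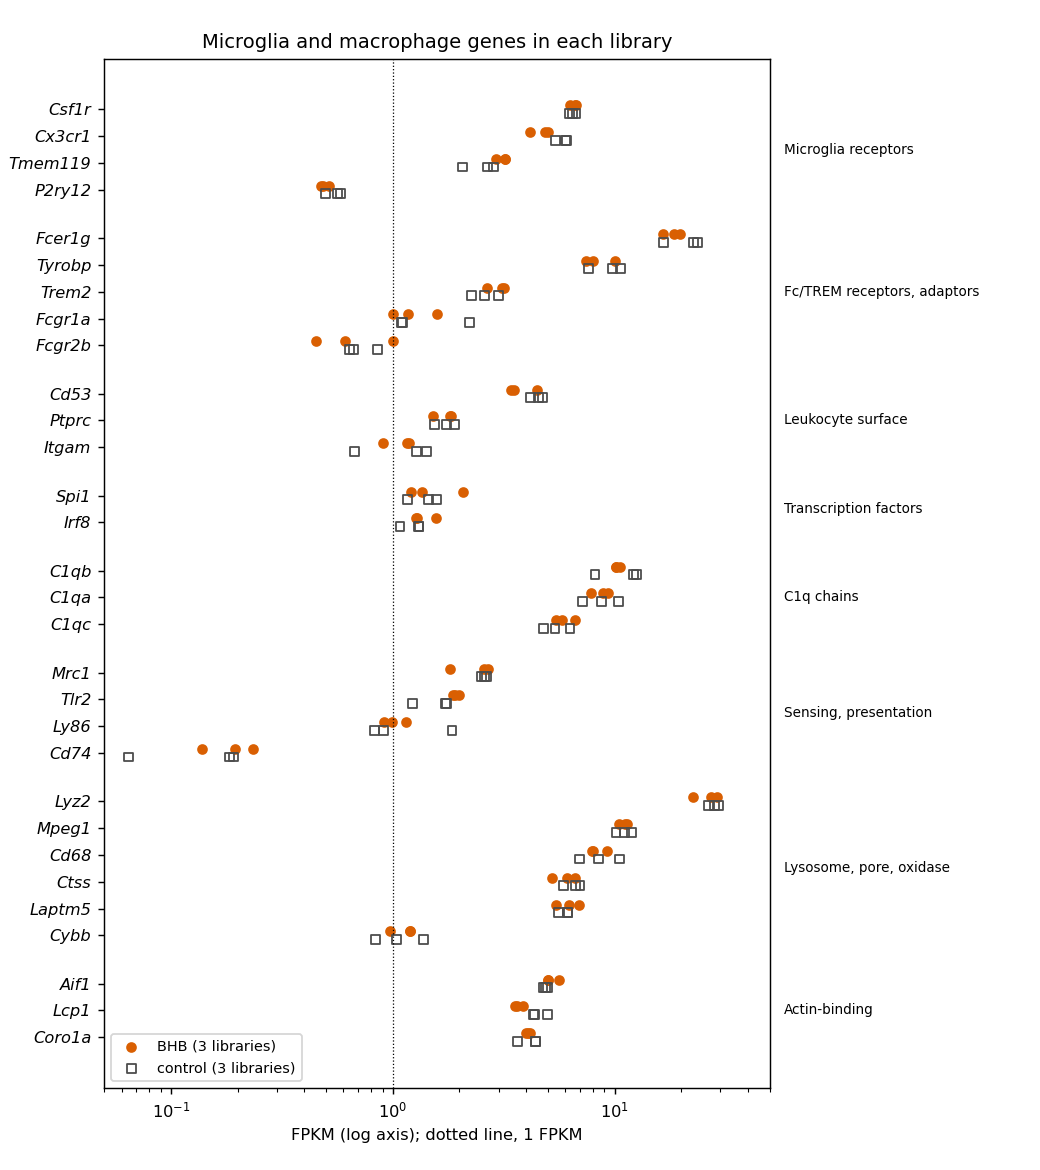
FPKM of the 30 genes on a log axis, grouped by role, with filled circles for the 3 BHB libraries and open squares for the 3 control libraries. Lyz2 and Fcer1g stand highest, Fcgr2b, P2ry12 and Cd74 average under 1 FPKM, and the symbols of both groups lie over each other for most genes.

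The order of the levels was led by Lyz2, the lysozyme of macrophages, at a mean of 27.1 FPKM over the 6 libraries, and by Fcer1g at 19.6 FPKM. Mpeg1, a pore-forming protein of macrophages (perforin-2), followed at 11 FPKM, then the complement chain gene C1qb at 10.7 FPKM, Tyrobp at 8.94 FPKM, C1qa at 8.71 FPKM and the lysosomal glycoprotein gene Cd68 at 8.51 FPKM. Lyz2 exceeded 77.3% of all tested genes in mean level, and Csf1r, at 6.51 FPKM, exceeded 35.3%. The lowest were Fcgr2b at 0.705 FPKM, P2ry12 at 0.520 FPKM and Cd74 at 0.168 FPKM. Most neighbours in this order could not be separated: of 29 neighbouring pairs, the ranges over the 6 libraries did not overlap in 5. These were Fcer1g over Mpeg1, Cd68 over Csf1r, Aif1 over Cd53, Coro1a over Tmem119 and P2ry12 over Cd74.

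**Figure D2:**
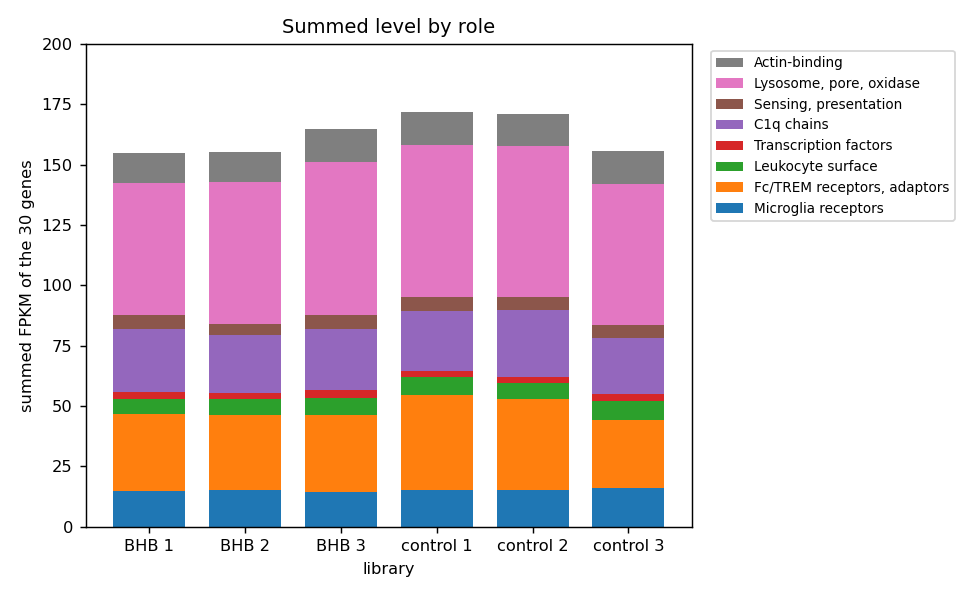
Stacked bars of the summed FPKM of the 30 genes in each library, with BHB libraries at the left, coloured by role and starting at 0. The totals run from 154.9 to 164.8 FPKM with BHB and from 155.6 to 171.6 FPKM in controls, and genes of the lysosome, pore and oxidase make up the largest share of each bar.

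Many of the members with a promoter entry hold a sequence motif that their choice did not use. RefSeq promoter sequences (build GRCr8, 250 bases before to 50 bases after the gene start) were matched by symbol for 19 of the 30 genes. The letters GAGGAA, part of the site bound by the ETS factor PU.1, were searched on both strands. Shorter ETS sites were not searched. GAGGAA was present in 13 of the 19 promoters, or 68.4%, against 25.7% of the 9048 promoters of tested genes and 27.6% of all 33469 promoters. The longer form GAGGAAGT, which contains GAGGAA, was present in 2 of the 19 (10.5%), Cd53 and Ctss, in 2.38% of tested genes and in 2.42% of all promoters. The letters TATAAA were counted on either strand and at any place in the window, so a match need not be a TATA box. They were present in 3 of the 19 (15.8%), Ctss, Irf8 and Laptm5, against 6.05% of tested genes and 14.2% of all promoters. The 19 promoters had a median GC content of 54.3% and a median of 5 CG dinucleotides, against 61.3% and 21 over tested genes and 51.7% and 7 over all promoters. A match describes letters in this window and is not evidence of binding.

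The promoters of the CSF1 receptor gene, of both genes with the longer form and of Cx3cr1, the member with the smallest p below, are shown 5′ to 3′ on the strand of the gene. Capitals mark GAGGAA or its reverse complement TTCCTC. The core begins 229 and 95 bases before the start in Csf1r, 44 bases before it in Cd53 and 15 bases before it in Ctss, each time as the reverse complement, and Cx3cr1 has no match in this window.
Csf1r (chr18:56834129-56834428, plus strand): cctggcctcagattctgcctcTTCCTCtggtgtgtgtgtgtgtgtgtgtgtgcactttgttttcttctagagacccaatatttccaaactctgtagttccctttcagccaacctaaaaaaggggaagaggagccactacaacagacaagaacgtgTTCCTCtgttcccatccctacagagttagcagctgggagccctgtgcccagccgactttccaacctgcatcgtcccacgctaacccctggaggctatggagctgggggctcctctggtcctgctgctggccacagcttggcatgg
Cd53 (chr2:197087847-197088146, minus strand): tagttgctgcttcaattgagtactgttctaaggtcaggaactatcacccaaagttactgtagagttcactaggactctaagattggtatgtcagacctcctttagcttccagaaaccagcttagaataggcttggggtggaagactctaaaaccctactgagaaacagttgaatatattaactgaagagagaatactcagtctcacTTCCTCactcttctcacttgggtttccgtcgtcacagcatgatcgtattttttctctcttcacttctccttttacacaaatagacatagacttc
Ctss (chr2:185775146-185775445, plus strand): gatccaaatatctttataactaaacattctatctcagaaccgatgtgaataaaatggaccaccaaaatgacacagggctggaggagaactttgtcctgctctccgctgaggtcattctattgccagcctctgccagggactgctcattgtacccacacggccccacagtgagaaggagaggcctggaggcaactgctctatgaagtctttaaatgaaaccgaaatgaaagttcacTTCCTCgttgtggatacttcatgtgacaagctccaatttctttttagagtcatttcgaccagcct
Cx3cr1 (chr8:128677017-128677316, minus strand): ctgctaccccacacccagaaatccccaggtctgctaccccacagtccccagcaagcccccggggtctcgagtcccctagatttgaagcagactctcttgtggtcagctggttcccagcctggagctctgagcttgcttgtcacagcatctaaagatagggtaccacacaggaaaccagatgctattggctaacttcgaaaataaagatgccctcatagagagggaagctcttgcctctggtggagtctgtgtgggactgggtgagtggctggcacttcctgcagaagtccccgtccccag

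Of the 30 genes 26 reached 1 FPKM in at least 3 libraries and were tested for BHB against control. Fcgr2b, P2ry12, Ly86 and Cd74 were not. The fit was made with limma on log2(FPKM + 1) over all 12373 genes, and fold changes on this scale understate the change of genes near 1 FPKM. None of the 26 passed at an adjusted p under 0.05, and the lowest adjusted p among them was 0.881. Over all tested genes 7 passed, or 0.0566%. At an unadjusted p under 0.05 in limma there were 2 members, Cx3cr1 and Lcp1, both lower with BHB. Of all tested genes 5.59% were past that threshold, and 2.14% were past it and lower. The median log2 fold change of the 26 was -0.00974, with 10 above 0 and 16 below, against a median of 0.00289 and 51.5% above 0 over all tested genes. The 95% interval lay inside -0.5 to 0.5 in 25 of the 26, the exception being Fcgr1a with a lower bound of -0.52. A p that misses the threshold does not show that these levels are equal.

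**Figure D3:**
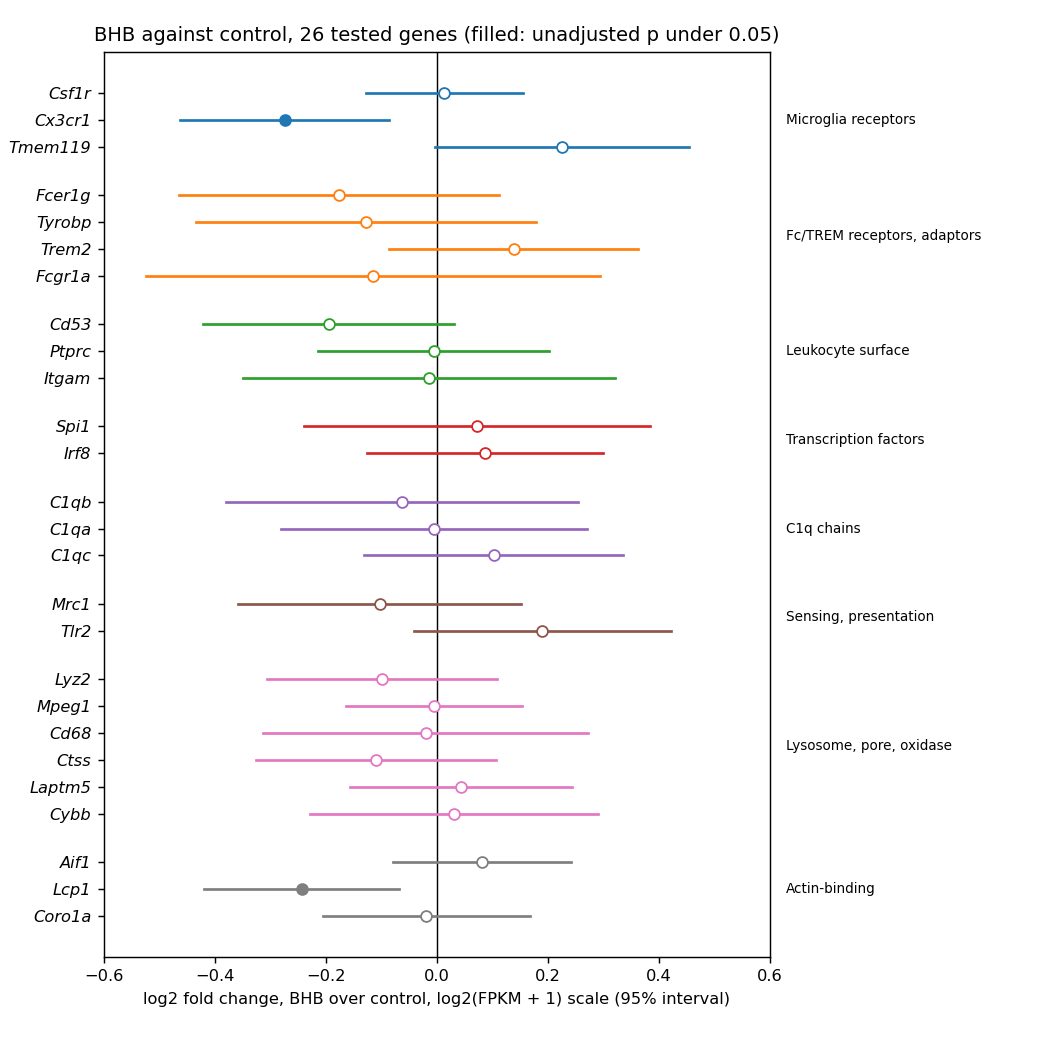
Log2 fold change of BHB over control on the log2(FPKM + 1) scale for the 26 tested genes, with 95% intervals from limma, grouped by role. Filled points, Cx3cr1 and Lcp1, have an unadjusted p under 0.05, and none passed after adjustment over all genes.

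Among the receptors that define microglia, Cx3cr1 stood lower and Tmem119 stood higher in every BHB library than in any control, and neither passed. Cx3cr1, the receptor of the chemokine fractalkine, had 4.84, 4.99 and 4.15 FPKM with BHB, against 6.02, 5.42 and 6.07 FPKM in controls. Its means of 4.66 ± 0.447 FPKM with BHB and 5.84 ± 0.365 FPKM in controls (SD, n = 3 each) gave a log2 fold change of -0.27 (SE 0.0822, 95% interval -0.46 to -0.0857) with an unadjusted p of 0.00985 and a limma adjusted p of 0.881. The groups did not overlap, which held for 10.9% of all tested genes and for 5 of the 26 members. Tmem119, a transmembrane protein used as a microglia marker, had 3.20, 2.91 and 3.21 FPKM with BHB, against 2.06, 2.84 and 2.68 FPKM in controls (log2 fold change 0.23, 95% interval -0.00290 to 0.46, limma adjusted p = 0.881). Csf1r, the receptor of CSF1 and IL-34, had the smallest spread between libraries of the 26, at 6.31, 6.72 and 6.61 FPKM with BHB and 6.48, 6.25 and 6.70 FPKM in controls (log2 fold change 0.0138, 95% interval -0.13 to 0.16). P2ry12, the ADP receptor of resting microglia, stayed between 0.477 and 0.516 FPKM with BHB and between 0.499 and 0.580 FPKM in controls.

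Genes of the ligands of CSF1R and of the fractalkine receptor, together with Tgfb1, were measured in the same libraries. Csf1 had 50.8, 47.6 and 55.2 FPKM with BHB, against 45.7, 44.3 and 40.6 FPKM in controls, a log2 fold change of 0.23 with an unadjusted p of 0.00907 and a limma adjusted p of 0.881. Every BHB library lay above every control, without passing the test. Cx3cl1, which encodes fractalkine, had 8.21, 7.93 and 7.94 FPKM with BHB, against 7.80, 5.42 and 2.43 FPKM in controls (log2 fold change 0.64, limma adjusted p = 0.881). Its controls were spread over a far wider range than the BHB libraries. Il34, the other CSF1R ligand, averaged 1.18 FPKM with BHB and 1.11 FPKM in controls, and Tgfb1, a growth factor that maintains microglia, averaged 10.1 FPKM with BHB and 10.2 FPKM in controls. None of these 4 ligand genes passed in limma, and Csf1 was the only one with an unadjusted p under 0.05, as had 5.59% of all tested genes.

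The Fc and TREM receptors and their adaptors had 4 tested members, 1 above 0 and 3 below, and none passed. Fcer1g had 16.6, 18.6 and 19.8 FPKM with BHB, against 22.8, 23.6 and 16.6 FPKM in controls (log2 fold change -0.18, limma adjusted p = 0.898). Tyrobp had 10.1, 8.0 and 7.41 FPKM with BHB, against 10.7, 9.81 and 7.65 FPKM in controls (-0.13, adjusted p = 0.917). Both groups overlapped in these adaptors, and control 3 was the lowest control in each. Trem2, the lipid-sensing receptor that pairs with TYROBP, had 3.11, 3.16 and 2.65 FPKM with BHB, against 2.99, 2.58 and 2.28 FPKM in controls (0.14, limma adjusted p = 0.898). Fcgr1a, the high-affinity IgG receptor, had 1.58, 1.18 and 1.0 FPKM with BHB, against 2.23, 1.10 and 1.11 FPKM in controls, and control 1 stood apart from the other controls. Fcgr2b, the inhibitory IgG receptor, lay between 0.450 and 1.01 FPKM with BHB and between 0.641 and 0.851 FPKM in controls. Fc gamma receptor genes resemble each other, and how reads shared between them were counted is not stated here.

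The signalling genes downstream of these adaptors were low as well. Of 14 genes 7 were tested, 2 above and 5 below 0, with a median log2 fold change of -0.11 and none passing in limma (2 at an unadjusted p under 0.05). Their summed level was 17.5 to 18.8 FPKM with BHB and 19.4 to 19.8 FPKM in controls. These sums did not overlap between groups, and neither did those of the 4 ligand genes or of the 13 astrocyte genes. The astrocyte sum includes Slc1a3, which passed in limma at 455.2 FPKM with BHB and 202.7 FPKM in controls (adjusted p = 1.64e-05). Single genes did not overlap in 10.9% of all tested genes, and no such share was computed for sums. The most abundant of the 14 signalling genes were the kinase gene Lyn, the phosphatase gene Ptpn6, the adaptor gene Blnk and Vav1, an exchange factor for small GTPases. They averaged 4.31, 2.70, 1.69 and 1.36 FPKM with BHB, against 4.25, 3.40, 2.25 and 1.53 FPKM in controls, in that order. Ptpn6 and Blnk were the 2 of the 7 tested with an unadjusted p under 0.05, against 5.59% of all tested genes.

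Surface genes of leukocytes in general did not pass. Ptprc, the phosphatase CD45 of all leukocytes, had 1.82, 1.83 and 1.52 FPKM with BHB, against 1.75, 1.54 and 1.90 FPKM in controls (log2 fold change -0.00548, limma adjusted p = 0.996). Cd53, a tetraspanin of leukocytes, had 3.40, 3.52 and 4.49 FPKM with BHB, against 4.73, 4.17 and 4.53 FPKM in controls (-0.20, limma adjusted p = 0.887), and BHB 3 lay within the range of the controls. Itgam, the CD11b chain of complement receptor 3, ranged from 0.902 to 1.19 FPKM with BHB and from 0.675 to 1.43 FPKM in controls. Genes of other leukocytes stood at or near 0. Of 19 markers of T, B and NK cells, granulocytes and mast cells 14 were listed at 0 in all 6 libraries, and the 19 together summed to at most 0.105 FPKM with BHB and 0.158 FPKM in controls.

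The transcription factor genes were measured at low levels. Spi1 had 1.36, 1.21 and 2.07 FPKM with BHB, against 1.17, 1.45 and 1.58 FPKM in controls (log2 fold change 0.0729, limma adjusted p = 0.954). BHB 3 was the highest library and the other BHB libraries lay within the controls. Irf8 had 1.57, 1.28 and 1.27 FPKM with BHB, against 1.31, 1.08 and 1.31 FPKM in controls (0.0873, limma adjusted p = 0.917).

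The chains of C1q, the recognition unit of classical complement that microglia supply in the brain, are encoded by C1qa, C1qb and C1qc, which lie next to each other with no other protein-coding gene between them in the RefSeq annotation. They summed to 23.8 to 26.1 FPKM with BHB and 23.2 to 28.0 FPKM in controls. C1qa had 8.85, 7.80 and 9.34 FPKM with BHB, against 7.17, 10.4 and 8.72 FPKM in controls. C1qb had 10.6, 10.2 and 10.1 FPKM with BHB, against 12.6, 12.2 and 8.16 FPKM in controls. C1qc had 6.61, 5.83 and 5.45 FPKM with BHB, against 4.80, 5.40 and 6.30 FPKM in controls. The controls were ordered differently in each chain: control 1 was lowest in C1qa and C1qc but highest in C1qb. None passed (log2 fold changes -0.00472, -0.0627 and 0.10, limma adjusted p 0.997, 0.962 and 0.917). The proteases that join C1q were more abundant, with C1r at 55.9 FPKM with BHB and 51.8 FPKM in controls and C1s at 34.9 FPKM with BHB and 34.1 FPKM in controls. Of 9 other complement genes 7 were tested, 3 above and 4 below 0, and none passed in limma or had an unadjusted p under 0.05. Serping1, which inhibits C1r and C1s, and C2 followed in abundance, at 12.2 and 6.90 FPKM with BHB and 13.3 and 6.78 FPKM in controls.

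Genes of sensing and antigen presentation included Tlr2, the receptor for bacterial lipoproteins, which had 1.91, 1.87 and 1.99 FPKM with BHB, against 1.23, 1.74 and 1.75 FPKM in controls. All BHB libraries lay above all controls, without passing (log2 fold change 0.19, limma adjusted p = 0.890). Across all tested genes that order held in 6.43%, and among the 26 in Tlr2, Tmem119 and Aif1. The mannose receptor gene Mrc1, a marker of border-associated macrophages, had 2.58, 1.81 and 2.70 FPKM with BHB, against 2.64, 2.60 and 2.53 FPKM in controls. Ly86, which encodes MD-1, the partner of the receptor RP105, lay between 0.918 and 1.15 FPKM with BHB, while control 1 stood at 1.85 FPKM and the other controls at 0.906 and 0.828 FPKM. Cd74, the invariant chain that guides MHC class II molecules, was at 0.138, 0.194 and 0.234 FPKM with BHB, against 0.191, 0.0644 and 0.184 FPKM in controls.

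The low Cd74 stood beside low MHC class II genes. RT1-Ba, RT1-Bb, RT1-Db1 and the non-classical RT1-DOa were listed at 0 in all libraries, and RT1-Da was at 0.0566 to 0.0592 FPKM with BHB and listed at 0 in controls. RT1-DMa and RT1-DMb, which encode the peptide-loading molecule, averaged 6.0 and 0.976 FPKM with BHB, against 6.58 and 1.04 FPKM in controls, and did not pass. Of 9 other border-associated macrophage genes in the table, Cd163 and Clec10a were listed at 0 in all libraries. The most abundant were the chemokine gene Pf4, the scavenger receptor gene Stab1, the folate receptor gene Folr2 and the hyaluronan receptor gene Lyve1. They averaged 4.97, 3.44, 1.32 and 0.322 FPKM with BHB, against 5.03, 3.72, 1.24 and 0.360 FPKM in controls, in that order. Of these 9 genes 3 were tested, and none passed in limma or had an unadjusted p under 0.05.

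The lysosomal, pore-forming and oxidase genes held the largest part of the summed level, 54.6 to 63.5 FPKM with BHB and 58.4 to 62.9 FPKM in controls. All 6 were tested, 2 above and 4 below 0, with limma adjusted p of 0.910 to 0.996. Lyz2 had 22.5, 27.1 and 29.1 FPKM with BHB, against 28.3, 29.3 and 26.5 FPKM in controls. Cd68 had 8.01, 7.95 and 9.24 FPKM with BHB, against 10.5, 8.45 and 6.93 FPKM in controls. The groups overlapped in both, and the BHB libraries of Cd68 lay inside the range of its controls. Ctss, a cysteine protease of antigen processing, ranged from 5.23 to 6.61 FPKM with BHB and from 5.88 to 6.99 FPKM in controls. Laptm5, a lysosomal membrane protein of blood cells, ranged from 5.45 to 6.91 FPKM with BHB and from 5.59 to 6.17 FPKM in controls. Mpeg1 ranged from 10.5 to 11.3 FPKM with BHB and from 10.2 to 11.9 FPKM in controls. Cybb, the catalytic subunit of the phagocyte NADPH oxidase, ranged from 0.976 to 1.19 FPKM with BHB and from 0.836 to 1.37 FPKM in controls. Of the 5 genes of its partner subunits and Rac2, 3 were tested and none passed. At an unadjusted p under 0.05 there was 1, against 5.59% of all tested genes. That gene, Ncf1, an activating subunit, was at 2.57, 2.44 and 2.43 FPKM with BHB, against 3.20, 3.79 and 2.91 FPKM in controls (log2 fold change -0.30, unadjusted p = 0.0102, limma adjusted p = 0.881). Cyba, the membrane partner, and the GTPase gene Rac2 averaged 39.4 and 5.45 FPKM with BHB, against 36.7 and 5.96 FPKM in controls.

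Of the actin-binding genes, Lcp1, which encodes the bundling protein L-plastin, had 3.54, 3.63 and 3.86 FPKM with BHB, against 4.34, 4.98 and 4.30 FPKM in controls. All BHB libraries lay below all controls, an order held by 4.45% of all tested genes and by Lcp1 and Cx3cr1 among the 26. Its means of 3.68 ± 0.162 FPKM with BHB and 4.54 ± 0.380 FPKM in controls (SD, n = 3 each) gave a log2 fold change of -0.24 (SE 0.0766, 95% interval -0.42 to -0.0673) with an unadjusted p of 0.0127 and a limma adjusted p of 0.881. Aif1, the calcium-binding protein IBA1 by which microglia are commonly stained, had 5.01, 5.0 and 5.64 FPKM with BHB, against 4.76, 4.88 and 4.97 FPKM in controls. Its BHB libraries lay above its controls by a small margin (log2 fold change 0.0815, limma adjusted p = 0.910). Coro1a, a coronin of leukocytes, averaged 4.07 FPKM with BHB and 4.15 FPKM in controls. The members that differ in direction include genes commonly used to mark microglia: Aif1 and Tmem119 lay above, Cx3cr1 below, and Csf1r within the range of the controls or just beyond it.

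Further genes linked to microglia, taken from a second list, did not pass either. Of 22 such genes 11 were tested, 4 above and 7 below 0, with a median log2 fold change of -0.0751 and none passing in limma (2 at an unadjusted p under 0.05). Those 2 of the 11, against 5.59% of all tested genes, were the receptor genes Cd33 and C3ar1, named after their values were seen. They and Rgs10, a regulator of G protein signalling also named after its values were seen, had all BHB libraries below all controls, an order held by 4.45% of all tested genes. Abundant genes of the list included the cathepsin gene Ctsz, Olfml3 and the transcription factor gene Sall1. They averaged 39.1, 31.8 and 30.2 FPKM with BHB, against 37.0, 31.4 and 29.8 FPKM in controls. In mean level these stood above each of the 30 members, whereas Gpr34 and P2ry13, named after their values were seen, averaged 0.813 and 0.418 FPKM with BHB and 0.442 and 0.291 FPKM in controls. For comparison, Csf1r averaged 6.51 FPKM and Spi1 1.47 FPKM over all libraries. Cathepsin genes are expressed by many cell types, and which cells supplied Ctsz, Olfml3 and Sall1 was not tested. Of 13 genes raised in disease-associated microglia 10 were tested, 6 above and 4 below 0. None passed in limma, and 1, the galectin gene Lgals3, named after its values were seen, had an unadjusted p under 0.05, against 5.59% of all tested genes. Lgals3 averaged 181.6 FPKM with BHB and 163.4 FPKM in controls (log2 fold change 0.15, limma adjusted p = 0.881). The most abundant of the 13, Ctsd, Apoe, Ctsb and Cd9, averaged 364.0, 308.9, 298.8 and 186.4 FPKM with BHB and 353.5, 322.3, 306.1 and 172.3 FPKM in controls, and these genes are strongly expressed by astrocytes too. Clec7a and Cst7, named after their values were seen, reached at most 0.156 and 0.0544 FPKM with BHB and 0.271 and 0.0115 FPKM in controls. The rest of the list was also named after its values were seen. Gpnmb, Axl, Spp1 and Lpl averaged 87.4, 72.0, 19.6 and 19.4 FPKM with BHB and 94.7, 70.1, 18.9 and 18.8 FPKM in controls. Igf1 and Itgax averaged 1.30 and 0.318 FPKM with BHB and 1.63 and 0.339 FPKM in controls.

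From library to library, the members were related to each other about as loosely as tested genes at large. Deviations of each library from the mean of its own group were compared between members. Over the 325 pairs of the 26 tested genes the median Pearson correlation of these deviations was -0.0209, with quartiles of -0.43 and 0.40. Over all 76539378 pairs of tested genes the median was 0.0015, with quartiles of -0.42 and 0.42. Correlations over 0.8 made up 15 of the member pairs, or 4.62%, against 5.80% of all pairs. Each correlation rests on 6 libraries whose group means were removed, so single pairs are imprecise. Among partners with a known physical association, Trem2 and Tyrobp had 0.815 and Fcgr1a and Fcer1g had 0.135, while the C1q chains had 0.292 (C1qa with C1qc), -0.0766 (C1qa with C1qb) and -0.69 (C1qb with C1qc).

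**Figure D4:**
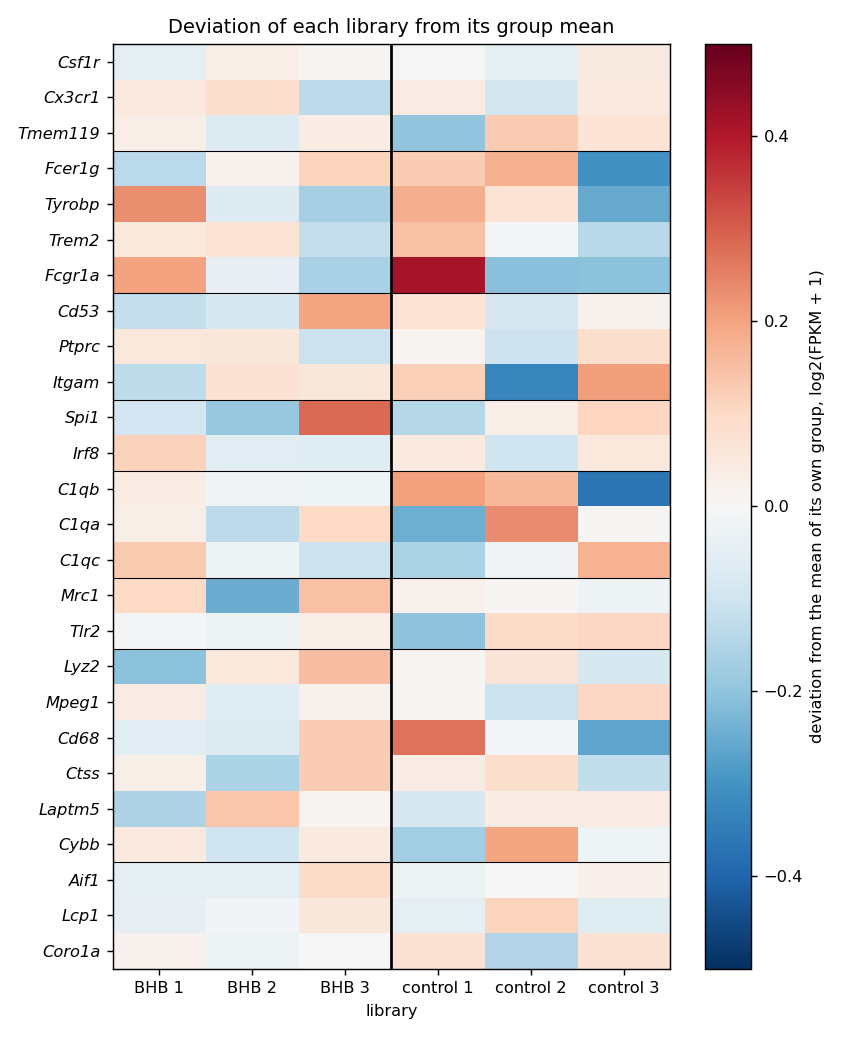
Deviation of each library from the mean of its own group on the log2(FPKM + 1) scale for the 26 tested genes, with BHB libraries at the left. Red and blue cells are mixed within each column, and control 3 is low in Fcer1g, Tyrobp, C1qb and Cd68 while it is not low in Csf1r, Itgam or C1qc.

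No library was high or low in all members. The highest value fell in BHB 1, BHB 2 and BHB 3 for 2, 3 and 7 of the 30 genes (6.67%, 10% and 23.3%). In control 1, control 2 and control 3 it did so for 7, 7 and 4 (23.3%, 23.3% and 13.3%). Over all tested genes the shares were 16.8%, 19.0% and 15.3% for BHB and 16.0%, 15.7% and 17.3% for controls. The lowest value fell in the same libraries for 6, 3 and 4 genes and for 7, 6 and 4 genes. Over all tested genes it did so in 15.7%, 18.2% and 14.3% and in 17.7%, 13.9% and 20.3%. With libraries scaled to equal sums the highest values fell in BHB 1, BHB 2 and BHB 3 for 2, 2 and 8 genes and in each control for 6, so the leading library depends on this scaling. BHB 2 lay above the mean of its group in 8 of the 26 tested genes and BHB 3 in 18. Over all tested genes the shares were 49.3% and 49.96%. In control 1, control 2 and control 3 the counts were 17, 14 and 15, against shares of 49.5%, 53.5% and 48.3%. The lower sum of control 3 came with members such as Fcer1g, C1qb, Tyrobp, Cd68, Lyz2 and Ctss, in which it was the lowest control. In others, such as Mpeg1 and C1qc, it was the highest control. The median spread within groups was an SD of 0.132 on the log2(FPKM + 1) scale over the 26 genes, against 0.0866 over all tested genes, with the lowest in Csf1r (0.0421) and the highest in Fcgr1a (0.284). This comparison was not matched for level, and the median of the 30 member means was 4.11 FPKM against 10.6 FPKM over tested genes. Correlations between libraries over the 30 genes were 0.971 to 0.991 within groups and 0.970 to 0.990 between groups.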

How the data were processed

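RNA was measured in 3 BHB and 3 control libraries. The deposited file is a table of FPKM, computed by the authors, with a row for each of 22608 symbols. The submitters' processing notes name bcl2fastq 2.0, HISAT2, StringTie and DESeq2 as tools and rn6 as the build, without roles or settings. Counts, depth, annotation and strand setting are not stated in the sources used here.

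Groups and replicate numbers came from the sample titles. FPKM values were transformed as log2(FPKM + 1). Genes reaching 1 FPKM in 3 or more of 6 libraries entered the test of BHB over control with limma 3.58.1 in R 4.3.3 (lmFit, eBayes with an intensity trend; two-sided; Benjamini-Hochberg over 12373 genes; threshold 0.05; no covariates). The fit was tested on simulated data. Sums, orders and correlations of members are descriptions and carry no test. Alternatives were a pseudocount of 0.1, no filter, equal library sums, TPM, quantile normalization, no trend, a replicate block and leaving out each library. Named genes were all 30 members and the 4 most abundant genes of each further list of microglia and macrophage biology; others are said to be named after their values were seen, and a few genes chosen by this rule are left out. The members and lists were chosen with earlier results of these data known. Promoter sequences are from RefSeq (GRCr8), matched by symbol, and no coordinates of rn6 were used. The 11 members without an entry in the promoter table were Tmem119, P2ry12, Tyrobp, Fcer1g, Fcgr1a, Fcgr2b, Spi1, C1qc, Ly86, Aif1 and Lcp1.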

Additional observations from a re-analysis of the deposited data

How the results depend on the processing

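None of the tested members passed in limma under any of the 12 alternatives fitted; their lowest adjusted p was 0.685 (without BHB 1), and 2 to 4 had an unadjusted p under 0.05. Of 312 member fold changes under these alternatives 286 kept their direction and 26 turned. Of the 26, 25 came from leaving out a library, in 14 genes, and 1 from scaling to equal sums, where Csf1r stood at -0.000993. With a library left out, the log2 fold changes that turned ran from -0.13 to 0.11 in C1qa, -0.25 to 0.0398 in C1qb, -0.15 to 0.12 in Cd68, -0.0924 to 0.0177 in Coro1a, -0.00808 to 0.0367 in Csf1r, -0.0558 to 0.13 in Cybb, -0.22 to 0.0906 in Fcgr1a, -0.18 to 0.0901 in Itgam, -0.0266 to 0.12 in Laptm5, -0.18 to 0.00443 in Lyz2, -0.0583 to 0.0462 in Mpeg1, -0.18 to 0.0212 in Mrc1, -0.0564 to 0.0490 in Ptprc and -0.0696 to 0.17 in Spi1. Cx3cr1 (-0.32 to -0.21), Lcp1 (-0.27 to -0.19), Tmem119 (0.13 to 0.29), Tlr2 (0.0906 to 0.24), Aif1 (0.0328 to 0.11), Fcer1g (-0.33 to -0.0885), Tyrobp (-0.25 to -0.0369), Trem2 (0.0695 to 0.21), Cd53 (-0.29 to -0.14), C1qc (0.0236 to 0.19), Irf8 (0.0299 to 0.12) and Ctss (-0.17 to -0.0295) did not turn. With a pseudocount of 0.1 the log2 fold changes were -0.32 for Cx3cr1, -0.30 for Lcp1, 0.30 for Tmem119 and 0.29 for Tlr2. The ratio of the summed level was 0.924 to 0.969 with a library left out and 0.943 at equal sums or as TPM. The median log2 fold change of the members ran from -0.0407 to 0.0192 with a library left out. Over all genes 5 to 10 passed with a library left out, and 4 passed without the eBayes trend, the cause of which was not tested. With the replicate block 2 genes passed, none of them a member, with fewer residual degrees of freedom. The labels do not say whether same-numbered libraries were paired, and the main fit did not pair them. Their deviations correlated at -0.0899, 0.164 and -0.15, which cannot decide it with 3 libraries per group. BHB 1, BHB 2 and BHB 3 correlated best with control 3, control 2 and control 1 (0.203, 0.164 and 0.186), a match that the labels do not give and that was not used. Depth is unknown, and members near 1 FPKM can change by more than this scale shows.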
